A study of Lentinus tigrinus with 27 samples.

Results

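A set of 13 genes of the wood-decay mushroom Lentinus tigrinus RLP-9953-sp was chosen because they were abundant in the cap of the young fruiting body and in the stipe of the mature one, and lower in the young stipe and the mature cap. For each gene the mean of log2(TPM + 1) over the 3 libraries of a group, called M here, was computed, where TPM is the share of transcripts, corrected for gene length and library size. A gene was taken when its lower M of young cap and mature stipe was at least 3 and at least 1.2 above its higher M of young stipe and mature cap, with the former pair less than 1 apart. Genes with M in any group at least 1 above the other 8 groups were to be dropped, and this step removed 0 genes. Of 15581 gene models 13 remained, all of which had enough reads to be tested. The M values of the 4 groups named in the rule therefore chose the genes, and differences among those groups are described without a test.

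Messenger RNA was sequenced in 27 polyA libraries, 9 groups of 3 described by the submitters as biological replicates, from a single strain. Vegetative mycelium (VM) was kept on malt extract agar, and the labels do not say whether the VM libraries came from it. Cultures for fruiting grew on aspen sawdust with wheat bran, at 30 °C in darkness over 21 days and then at 25 °C under a cycle of light (12 h) and dark (12 h). The first primordia (P1) lacked a cap and were white and stalk-like, measuring 5 to 20 mm, and stage 2 primordia of 15 to 25 mm with a brown apex were divided into cap (P2_cap) and stipe (P2_stipe). Young fruiting bodies of 30 to 40 mm, with a cap of at most 5 mm and gills just visible, gave YFB_cap and YFB_stipe, and fruiting bodies of 50 to 70 mm with a flat cap gave FB_cap, FB_stipe and the gills, FB_lamellae. No marker list could be applied to check the tissue labels, since the files pair identifiers with no names.

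In mushrooms the stipe lifts the cap by elongation of its cells, while the cap expands and bears the gills on its underside. The gills carry the basidia, the cells in which nuclei fuse, meiosis takes place and spores are formed. Cap and stipe follow separate programs of growth after the primordium has divided into both tissues. The files name genes by identifier only, and a RefSeq gene table of another Lentinus tigrinus assembly matched 0 of them. No function is therefore given for any gene, and no sequence is shown. In order of decreasing margin of high over low groups the genes are Lenti6_1_519031, Lenti6_1_564360, Lenti6_1_641150, Lenti6_1_552529, Lenti6_1_552168, Lenti6_1_516600, Lenti6_1_658686, Lenti6_1_525583, Lenti6_1_656984, Lenti6_1_648210, Lenti6_1_599706, Lenti6_1_509296 and Lenti6_1_288209. Bars in the deposited identifiers are written here as the sign _. The gene models were between 327 and 2310 bases long, with a median of 1309 against 1216 over all models. The lowest share of uniquely mapped reads of any of them in any library was 99.4%.

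Libraries held between 10841296 (FB_lamellae replicate 2) and 31818650 reads in genes (P2_cap replicate 1). They came from 6 flowcells (the slides on which libraries are sequenced), which were unevenly spread over the groups. FB_cap replicate 2 stood apart from the other mature caps. The first principal component of log2(CPM + 1), where CPM is a gene's reads scaled to a common library total, held 30.3% of the variance. On it this library lay at 58.5, against -4.93 and 17.1 for FB_cap replicates 1 and 3 and 75.4 to 102 for VM. FB_lamellae replicate 1 lay at 42.7, with the other lamellae at 18.9 and -34.3. FB_cap replicate 2 and FB_lamellae replicate 1 shared a flowcell with VM replicates 1 and 2. FB_cap enters the rule, and differences from it are given with and without its replicate 2. Fewer cells of a kind and less RNA per cell cannot be told apart in these bulk samples.

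Lenti6_1_564360, the shortest of the 13 gene models with 327 bases, had the highest level per length by the lower M of the high groups. Its TPM was 602, 1098 and 883 in YFB_cap replicates 1, 2 and 3, and 504, 673 and 826 in FB_stipe replicates 2, 3 and 4. In the low groups it stood at 153, 256 and 135 TPM in YFB_stipe and at 265, 46.1 and 397 TPM in FB_cap replicates 1, 2 and 3. All 6 libraries of the high groups lay above all 6 of the low groups, and the lowest value was that of FB_cap replicate 2. Its M was 9.71 ± 0.44 in YFB_cap and 9.36 ± 0.36 in FB_stipe, against 7.45 in YFB_stipe and 7.42 ± 1.64 in FB_cap (SD, n = 3 each). VM was not low for this gene, with 60.9, 675 and 1367 TPM in replicates 1, 2 and 3, a spread that covered every other group's mean.

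Lenti6_1_648210 was next in abundance, with 689, 722 and 970.4 TPM in YFB_cap and 489.6, 906 and 523 TPM in FB_stipe replicates 2, 3 and 4. YFB_stipe held 211, 302 and 259.5 TPM and FB_cap 389.5, 97.0 and 296 TPM in replicates 1 to 3. The high and low libraries again did not overlap. VM was lowest, with 97.2, 51.6 and 70.6 TPM, so that FB_cap replicate 2 stood at the level of the mycelium. FB_lamellae ran from 246 over 465 to 837 TPM and overlapped all 4 of those groups.

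Lenti6_1_519031 had the largest margin, 2.01 on the log2(TPM + 1) scale. Its TPM was 62.7, 101 and 109 in YFB_cap, and 97.6, 103 and 91.0 in FB_stipe replicates 2, 3 and 4. In YFB_stipe it was 22.7, 27.9 and 14.9 TPM, and in FB_cap 35.0, 8.12 and 24.9 TPM. The mature stipe was tight, with an SD of M of 0.09, and the high libraries lay clear of the low ones. Its highest M was that of FB_stipe (6.62), followed by YFB_cap (6.48), which does not differ from it beyond their spread.

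At the edge of the rule, Lenti6_1_288209 and Lenti6_1_509296 had margins of 1.24 and 1.25. The nearest genes outside it, Lenti6_1_582347 and Lenti6_1_648814, had margins of 1.19 and 1.18 and lower levels, with 3.87 to 4.01 as the lower M of the high groups against 5.50 and 7.10. Lenti6_1_288209 held 58.0, 67.1 and 56.2 TPM in YFB_cap and 26.6, 69.1 and 47.0 TPM in FB_stipe replicates 2, 3 and 4. It stood at 18.6, 17.5 and 18.3 TPM in YFB_stipe and 21.8, 8.28 and 12.8 TPM in FB_cap. For Lenti6_1_288209 and Lenti6_1_509296 the high and low libraries did not overlap. They did overlap for Lenti6_1_599706, whose margin was also 1.25. A further 25 genes met all other criteria with a margin between 1.0 and 1.2.

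**Figure D1:**
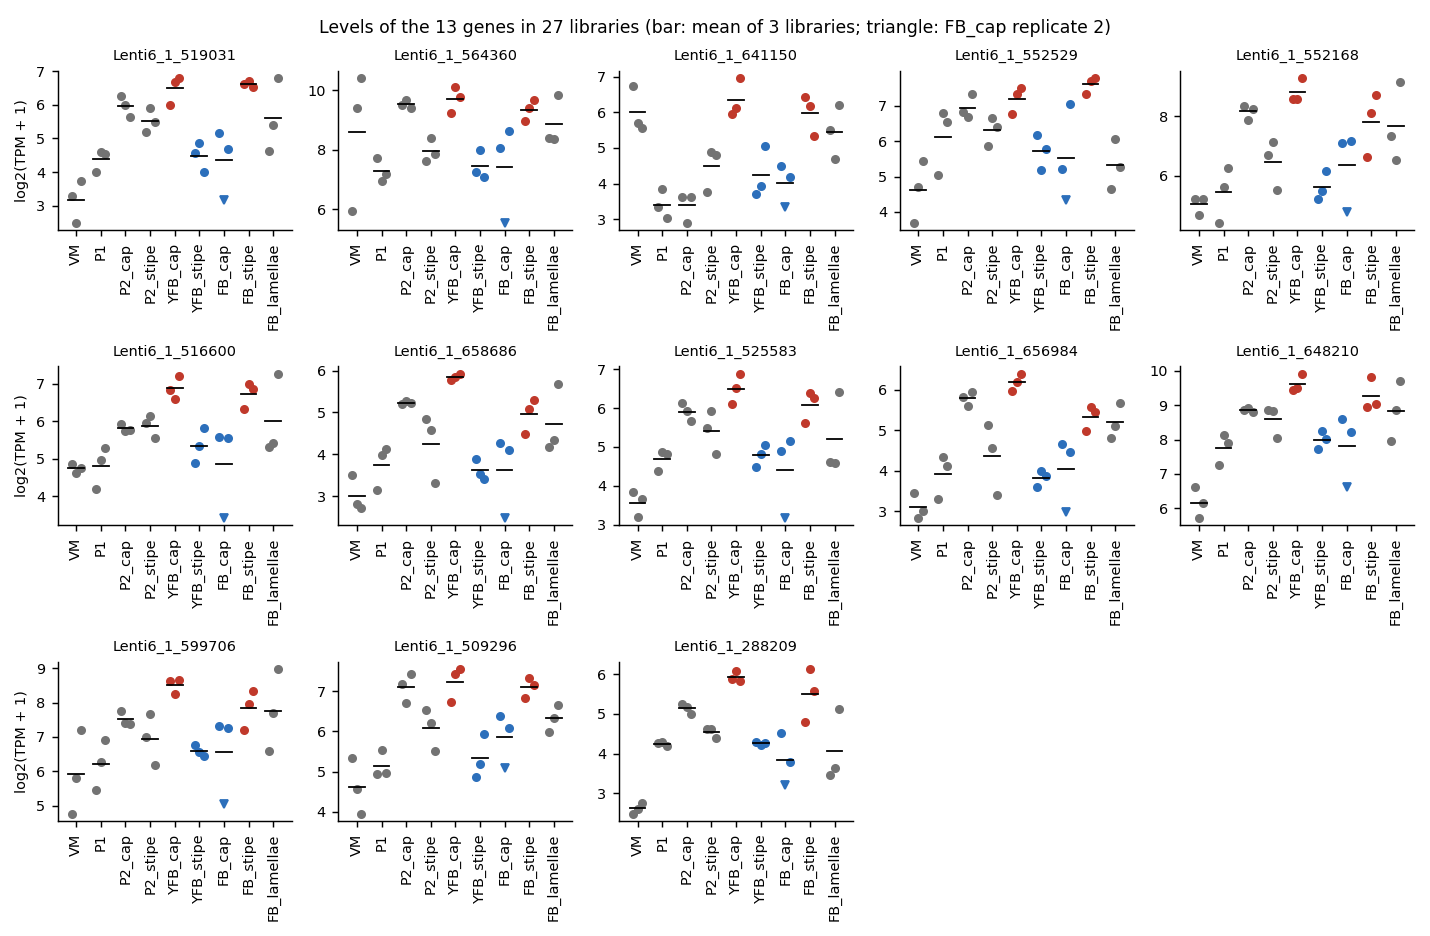
Level of each of the 13 genes as log2(TPM + 1) on the vertical axis, by group on the horizontal axis, with 1 point per library and a bar at the mean of 3 libraries. Red marks the groups chosen as high, blue those chosen as low, and the triangle FB_cap replicate 2, which is the lowest of its group for all 13 genes.

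In 10 of the 13 genes every library of YFB_cap and FB_stipe lay above every library of YFB_stipe and FB_cap. The rule used these same libraries, which favours such a separation, and the share of all genes so placed was not computed. The exceptions were Lenti6_1_552168, Lenti6_1_599706 and Lenti6_1_552529. For Lenti6_1_552168, FB_stipe replicate 2 had 97.5 TPM, below FB_cap replicates 1 and 3 with 136 and 144 TPM. For Lenti6_1_599706 the same stipe library had 145 TPM against 159.5 and 153 TPM in those caps. For Lenti6_1_552529, FB_cap replicate 3 had 132 TPM, above YFB_cap replicate 1 with 108 TPM. These 3 genes are named because they are the exceptions, chosen after their values were seen. FB_stipe replicate 2 was the lowest of its group for 11 of the 13 genes.

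Both differences were chosen by the rule. All 13 genes had the 3 YFB_cap libraries above the 3 YFB_stipe libraries, where 37% of 13143 genes with a mean M of at least 1 did so. For FB_stipe over FB_cap this held in 11 of 13, against 9.81% of those genes. FB_stipe libraries all lay above those of YFB_stipe in 13 genes (11.6% of all), and YFB_cap above FB_cap in 12 (31.1% of all). FB_cap replicate 2 was the lowest mature cap for all 13 genes, so leaving it out could not change the 11 and 12 over FB_cap. Without it 14.1% and 41.2% of all genes were so placed. Median differences of M were 1.93 for YFB_cap over YFB_stipe and 1.66 for FB_stipe over FB_cap. Between YFB_cap and FB_stipe, M was higher in YFB_cap for 11 genes, by up to 0.99 for Lenti6_1_552168. Under the mirrored rule, high in young stipe and mature cap, 33 genes were found.

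**Figure D2:**
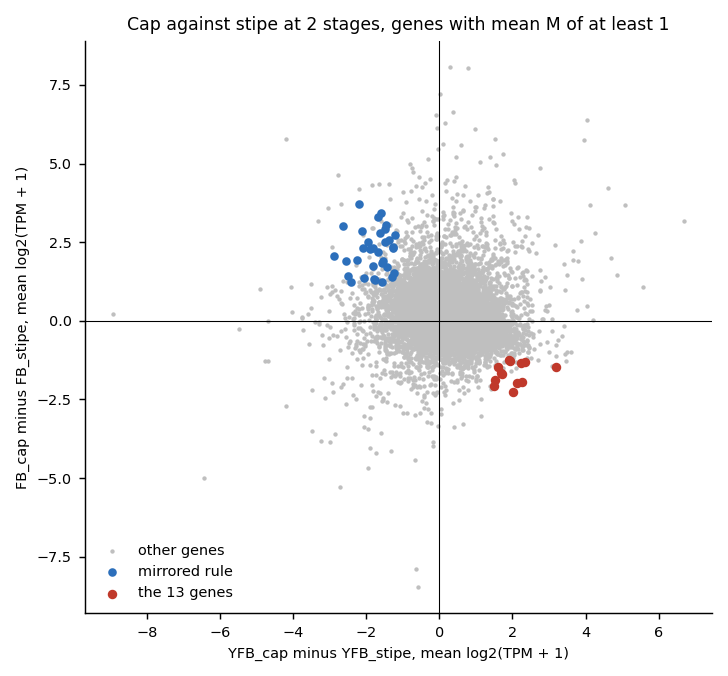
Difference of M between cap and stipe in the young fruiting body (horizontal) and in the fruiting body (vertical) for genes with a mean M of at least 1, on the log2(TPM + 1) scale. The 13 genes (red) lie at lower right, where the cap is high early and the stipe late, and the 33 genes of the mirrored rule (blue) at upper left, both placed there by the rules.

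FB_cap replicate 2 decided most of the membership. It was the lowest mature cap for 13 of 13 genes, and the mean of the 13 genes in it was -1.85 relative to their own means over 27 libraries, below every VM library (-1.39 to -0.97). In FB_cap replicates 1 and 3 that mean was -0.07 in each. Without FB_cap replicate 2 only 3 genes met the rule, and all 3 are among the 13, namely Lenti6_1_519031, Lenti6_1_641150 and Lenti6_1_288209. The other 10 kept a positive margin, between 0.53 and 1.15. The median difference between FB_stipe and FB_cap fell from 1.66 to 1.01 on the log2(TPM + 1) scale, with a range of 0.53 to 1.68 and FB_stipe higher in all 13. The median difference between YFB_cap and FB_cap fell from 2.10 to 1.46, with YFB_cap higher in all 13. FB_cap replicate 2 was sequenced on the flowcell of 2 VM libraries, and the part of the flowcell in its low values was not tested.

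**Figure D3:**
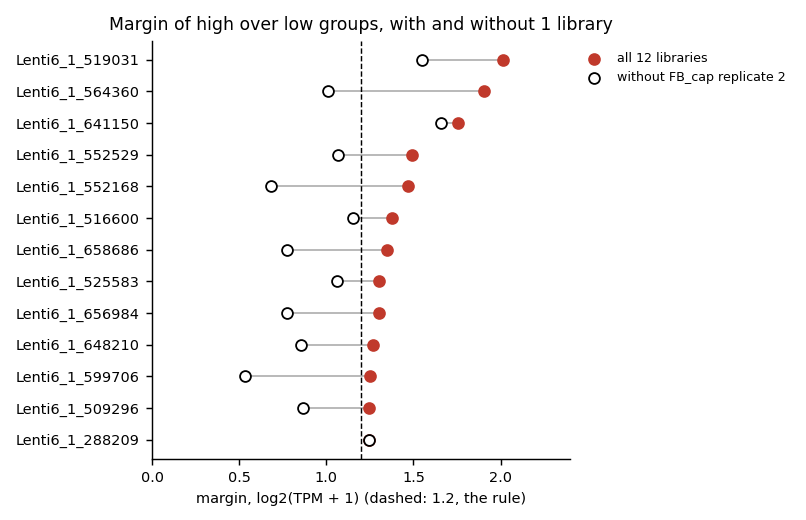
Margin of the high over the low groups for each gene, on the log2(TPM + 1) scale, with all 12 libraries of the 4 groups (filled) and without FB_cap replicate 2 (open). The dashed line is the 1.2 of the rule, and 3 of 13 genes stay to its right without that library.

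Other libraries of the mature stipe and cap also moved the count. Without FB_stipe replicate 2, 40 genes met the rule, including all 13, and without FB_stipe replicate 3 only 8, of which 6 are among the 13. Without FB_cap replicate 1 there were 20, including all 13.

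The flowcells of the 2 high groups overlap. YFB_cap replicates 2 and 3 and FB_stipe replicates 2 and 3 were on a flowcell that also held YFB_stipe replicate 3. Within it the 13 genes were all higher in YFB_cap than in YFB_stipe by a median of 1.69 (1.10 to 2.85), where 61.8% of all genes were higher. They were also all higher in FB_stipe than in YFB_stipe, by a median of 1.25 (0.84 to 2.67), where 42.8% of all genes were higher. On the flowcell that held YFB_cap replicate 1 and YFB_stipe replicates 1 and 2, the 13 were again all higher in the cap, by a median of 1.70 (1.08 to 3.22), where 63.4% of all genes were higher. The rule used these libraries, so nothing is tested here. Both medians of cap over stipe are below the 1.93 over all libraries. No flowcell held FB_cap with FB_stipe or with YFB_cap, so for the mature cap flowcell and tissue cannot be told apart.

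**Figure D4:**
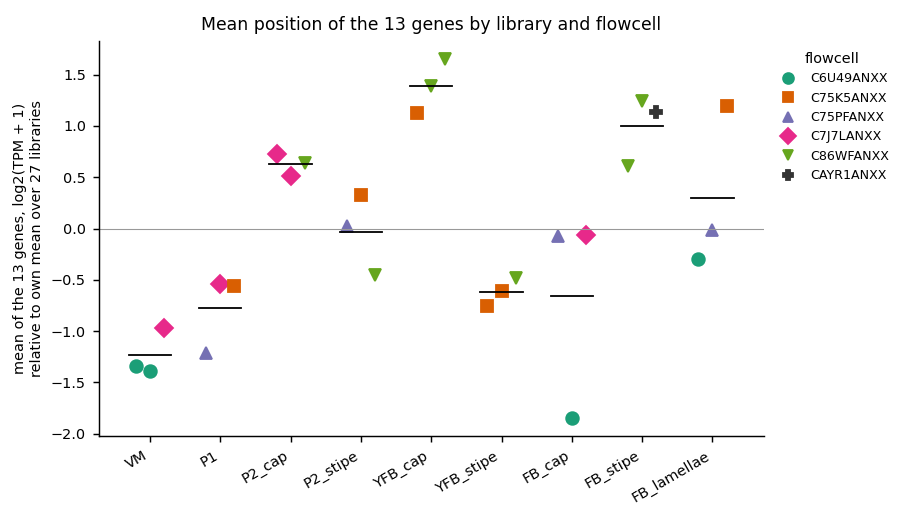
Mean of the 13 genes in each library, as log2(TPM + 1) relative to each gene's mean over 27 libraries (vertical), by group, with colour and symbol for the flowcell and a bar at the group mean. YFB_cap lies between 1.13 and 1.66 and FB_stipe between 0.61 and 1.24, FB_lamellae replicate 3 lies at 1.19, and FB_cap replicate 2 is the lowest of 27 at -1.85.

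Across all 9 groups the young cap was the highest for 11 of the genes and FB_stipe for Lenti6_1_519031 and Lenti6_1_552529. The rule placed YFB_cap and FB_stipe above YFB_stipe and FB_cap, so the order between these 2 pairs was set by choice. VM was lowest for 11. The exceptions were Lenti6_1_564360, lowest in P1, and Lenti6_1_641150, lowest in P2_cap. How many of all genes were highest in YFB_cap or lowest in VM was not computed. The mean of the 13 genes relative to their own means was -1.23 ± 0.23 in VM, -0.77 ± 0.38 in P1, 0.63 ± 0.11 in P2_cap and -0.03 ± 0.40 in P2_stipe. It was 1.39 ± 0.26 in YFB_cap, -0.61 ± 0.13 in YFB_stipe, -0.66 ± 1.03 in FB_cap, 1.00 ± 0.34 in FB_stipe and 0.30 ± 0.79 in FB_lamellae (SD of log2 values, n = 3 libraries each). In descending order these are YFB_cap, FB_stipe, P2_cap, FB_lamellae, P2_stipe, YFB_stipe, FB_cap, P1 and VM. Neighbours in that order differed by less than the sum of their SDs, except P2_stipe and YFB_stipe. FB_cap and FB_lamellae had the widest spread, with replicate 2 low in the former and replicate 3 high in the latter.

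The 5 groups that the fold criteria did not use allow tests. However, FB_cap replicate 2, which decided most of the membership, shared a flowcell with VM replicates 1 and 2. P1 against VM may therefore not be free of the choice of genes. Every library of the 5 groups shared a flowcell with a library of the rule groups. For example, P1 replicates 1 and 2 were each on a flowcell with an FB_cap library. P2_cap replicate 3 and P2_stipe replicate 3 were on one with YFB_cap and FB_stipe libraries. The other comparisons may therefore not be free of the choice either, and this was not tested. All tests were made with edgeR's quasi-likelihood method on read counts of all 27 libraries. A gene was called at a Benjamini-Hochberg adjusted p under 0.05 over 13569 genes and a fold change of at least 2. Fold changes from these fits are on counts scaled by TMM, a method that sets libraries to a common composition. The first comparison set the stage 1 primordia against the mycelium. The labels give temperature, light and days in darkness only for the fruiting cultures, so stage and growth conditions cannot be told apart in it. In P1 against VM, 6 of the 13 genes rose and 1 fell, where 6.91% of all tested genes rose and 8.08% fell. Estimates were above 0 in 11 of 13, against 51.5% of all genes, and the median log2 fold change of the 13 was 1.07, against 0.03 over all genes.

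Lenti6_1_288209 had 4.60, 5.10 and 5.72 TPM in VM and 18.1, 18.4 and 17.3 TPM in P1. Its libraries were tight and far apart, and it rose with a log2 ratio of 2.02 (SE 0.38, adjusted p = 0.00078 by edgeR). Lenti6_1_648210 rose from the 51.6 to 97.2 TPM of VM to 154, 279 and 238 TPM in P1, with no overlap and a log2 ratio of 1.83 (SE 0.42, adjusted p = 0.00381 by edgeR). The other 4 called rises were between 1.15 and 1.70 on the log2 scale, at adjusted p by edgeR of 0.0353 to 0.0428.

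Lenti6_1_641150 went the other way. It had 105, 51.4 and 46.2 TPM in VM and 9.08, 13.3 and 7.12 TPM in P1, and fell, with a log2 ratio of -2.53 (SE 0.51, adjusted p = 0.00144 by edgeR). Of the 7 calls, those of Lenti6_1_288209 and Lenti6_1_641150 held in all 16 alternatives run. With flowcell as a covariate 3 of the 13 were called, and 1167 genes in all against 2034 in the main fit. The log2 fold change of Lenti6_1_648210 was then 0.97 and that of Lenti6_1_288209 1.35, with 0.45 to 0.92 for the other 4. The rise of Lenti6_1_288209 alone was still called. The count was 4 without VM replicate 1 and 3 without VM replicate 2, P1 replicate 2 or P1 replicate 3. In those fits 1496 to 1532 genes were called in all. On the flowcell that held VM replicate 3 and P1 replicate 2, the differences on the log2(TPM + 1) scale were 1.53 for Lenti6_1_288209, 1.97 for Lenti6_1_648210 and -1.72 for Lenti6_1_641150, and 10 of 13 genes were higher in P1, where 52.4% of all genes were.

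The cap of the stage 2 primordium was then set against the undivided stage 1 primordium. In P2_cap, 6 of the 13 genes were higher than in P1 and 0 lower, where 5.23% of tested genes were called higher and 8.81% lower. The estimate was higher in 12 of 13, the exception being Lenti6_1_641150, against 46.7% of all genes, and for 11 all P2_cap libraries lay above those of P1 in TPM, as did 26.9% of genes. The median log2 fold change was 1.15, against -0.06 over all tested genes.

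Lenti6_1_552168 had 20.6, 48.8 and 76.0 TPM in P1 and 324, 235 and 306 TPM in P2_cap. The groups lay far apart, and the gene rose with a log2 ratio of 2.49 (SE 0.66, adjusted p = 0.0117 by edgeR). Lenti6_1_564360 rose from 211, 125 and 144 TPM to 721, 829 and 683 TPM, with no overlap and a log2 ratio of 2.07 (SE 0.73, adjusted p = 0.048 by edgeR), a call that was lost in 9 of 16 alternatives (0.00104 to 0.134). The other 4 called rises were between 1.40 and 1.89 on the log2 scale, at adjusted p by edgeR of 0.00214 to 0.0295.

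Of the 6 calls, 2 held in all 16 alternatives, and that of Lenti6_1_552168 was lost only without P1 replicate 1 (adjusted p = 0.0579 by edgeR, the highest of a range that began at 0.000888). P1 replicate 1 was the lowest of its group for 10 of the 13 genes. The count was 2 without P1 replicate 1, 3 without P1 replicate 2 and 3 without P2_cap replicate 1 or 2. Over all tested genes these fits called 1160 to 1692, against 1905 in the main fit. Within the flowcell of P1 replicate 2 and P2_cap replicates 1 and 2, 11 of 13 genes were higher in the cap, by a median of 1.26 on the log2(TPM + 1) scale, where 48.3% of all genes were higher and the median was -0.03.

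The stipe of stage 2 was compared with the same P1 libraries. For P2_stipe against P1 edgeR called 0 of the 13 genes, and 0% of all tested genes. limma-voom and DESeq2 likewise called 0 of the 13, though DESeq2 called 49 genes in all. At an unadjusted p under 0.05 there were 5 of the 13 genes and 9.03% of all tested genes. All 13 estimates were above 0, between 0.24 and 1.39 on the log2 scale, with a median of 0.92. Of all tested genes 46.6% had an estimate above 0. The P1 libraries are shared with the previous comparisons, so the directions are not independent of them.

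Cap and stipe of stage 2 were also compared directly. The young fruiting body showed all 13 genes higher in the cap, by choice, and the question is whether the stage before did so. For P2_cap against P2_stipe edgeR called 0 of the 13 genes, where 7.78% of all tested genes were called. At an unadjusted p under 0.05 there were 4 of 13 genes, against 25.6%. limma-voom called 1 of the 13 and 1026 of all 13569 tested genes, and DESeq2 called 2 of the 13 and 1351 of all. In TPM the P2_cap libraries all lay above those of P2_stipe for 7 genes (29.6% of all) and below them for 1 (10.1% of all). In log2(TPM + 1), P2_cap had the higher mean for 11 genes, as did 67.4% of all genes, and 10 of 13 edgeR estimates were above 0, against 48.5% of all genes. A p that misses the threshold does not show that the tissues were alike, and the estimates ran from -1.51 to 1.37.

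The upper end was Lenti6_1_552168, with 324, 235 and 306 TPM in P2_cap and 103, 142 and 44.7 TPM in P2_stipe. These libraries did not overlap, but the log2 ratio of 1.37 (SE 0.63) missed the threshold (adjusted p = 0.176 by edgeR, with alternatives at 0.0331 to 0.435). The lower end was Lenti6_1_641150, with 11.3, 6.46 and 11.4 TPM in P2_cap and 12.5, 28.6 and 26.8 TPM in P2_stipe. It missed the threshold with a log2 ratio of -1.51 (SE 0.50, adjusted p = 0.0555 by edgeR), and was called lower in the cap in 6 of 16 alternatives (0.0241 to 0.199). On the flowcell shared by P2_cap replicate 3 and P2_stipe replicate 3, 12 of 13 genes were higher in the cap by a median of 0.91, where 70.1% of all genes were.

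From stage 2 to the young fruiting body, YFB_cap had a higher M than P2_cap for all 13 genes, by a median of 0.62, where 52.5% of all genes were higher. Its libraries all lay above those of P2_cap for 8 of them (18.1% of all). YFB_stipe had a lower M than P2_stipe for all 13, by a median difference of -0.59, where 52.9% of all genes were higher, and its libraries all lay below for 2 (4% of all). Both YFB groups entered the rule, so these values are given without a test. For Lenti6_1_641150 the step in the cap was the largest of the 13, from 6.46 to 11.4 TPM in P2_cap to 61.6, 68.3 and 124 TPM in YFB_cap. For Lenti6_1_509296 the step was small, since P2_cap held 144, 103 and 172 TPM and YFB_cap 105, 172 and 187 TPM, and the groups overlapped.

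The gills hang under the mature cap and were sampled apart from it. FB_lamellae was higher than FB_cap in M for 12 of 13 genes, by a median of 1.15, where 66.3% of all genes were higher. In 2 genes the lamellae libraries all lay above those of the cap, against 12% of all genes. Without FB_cap replicate 2 the lamellae were higher in 11 of 13 genes, by a median of 0.46, where 70.4% of all genes were higher. The count of 2 with all libraries above could not change, since that library was the lowest mature cap for all 13 genes. Of all genes 24.1% were then so placed. FB_cap had been chosen as low, so no test is given. FB_lamellae lay below YFB_cap in M for all 13 genes, where 44.8% of all genes lay above it, and with all libraries below for 5 (16.4% of all). YFB_cap had been chosen as high, which favours this direction. FB_lamellae replicate 3 was the highest of its group for 12 of 13, with 566 TPM of Lenti6_1_552168 against 162 and 91.8 TPM in replicates 1 and 2, and it reached the YFB_cap range of 379.5 to 624 TPM.

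FB_lamellae was tested against P2_cap, the young cap tissue outside the fold criteria. Only Lenti6_1_641150 was called, higher in the lamellae, where 6.81% of all tested genes were called higher and 5.07% lower. It had 44.1, 24.7 and 72.6 TPM in FB_lamellae and 11.3, 6.46 and 11.4 TPM in P2_cap. The groups did not overlap, and the log2 ratio was 2.26 (SE 0.51, adjusted p = 0.00406 by edgeR), a call that held in all 16 alternatives. Of the 13 estimates 4 were above 0, against 52.2% of all genes, with a median of -0.37 against 0.03 over all genes. No flowcell held both groups, so flowcell and tissue cannot be told apart by a direct comparison, and with flowcell as a covariate 1 gene was called as well but 7 of 13 estimates were above 0. Without FB_lamellae replicate 2 there was 1 further call, lower in the lamellae, where 679 of 13636 tested genes were called lower. Without FB_lamellae replicate 3, 2 genes were called lower in the lamellae, where 622 of 13636 were, and 1 of 13 estimates was above 0.

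**Figure D5:**
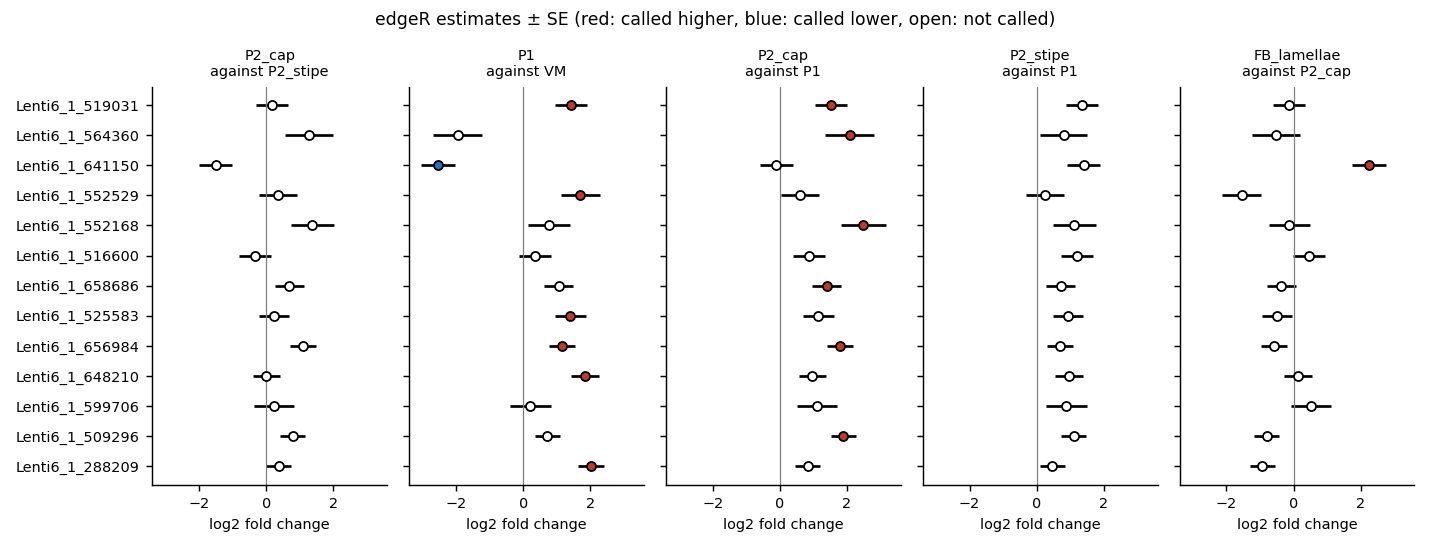
edgeR log2 fold change (horizontal, ± SE) of each of the 13 genes in the 5 comparisons of groups outside the fold criteria. Filled points were called, with 6 higher and 1 lower in P1 over VM, 6 higher in P2_cap over P1, 1 higher in FB_lamellae over P2_cap and 0 in the 2 comparisons with P2_stipe.

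Lenti6_1_641150 was high in VM, low in P1 and P2_cap, and returned in YFB_cap, FB_stipe and FB_lamellae. Lenti6_1_564360 was also high in 2 of 3 VM libraries, and its log2 ratio in P1 against VM was -1.95 (SE 0.73, adjusted p = 0.0628 by edgeR, with alternatives at 0.00044 to 0.366). It was called lower in P1 in 5 of 16 alternatives, among them flowcell as a covariate (-2.70) and leaving out VM replicate 1 (-2.49), and the estimate was -0.94 without VM replicate 3. The other 11 genes had their lowest M in VM. Their levels differed widely, since M in YFB_cap ran from 5.85 for Lenti6_1_658686 to 9.71 for Lenti6_1_564360 on the log2(TPM + 1) scale.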

How the data were processed

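Per the labels' protocols, polyA RNA was extracted with RNeasy Midi and made into libraries with the Illumina TruSeq RNA v2 kit. For strand, aligner and genome build: not given in the sources used here. R 3.0.2, edgeR 3.4.2 and limma 3.18.13 are named in the submitters' processing notes. The authors deposited, per the file headers, the total and unique read count per gene and TPM for each library. The deposited TPM equalled the value recomputed from total counts and gene length to within 3.5e-10. A deposited table of log2 RPKM was used as an alternative only.

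Members were found from the deposited TPM. Tests used total counts (edgeR 4.0.16, R 4.3.3) after filterByExpr (minimum count 10), keeping 13569 genes, with TMM scaling, and 1 model of 9 group means over 27 libraries, with 18 residual degrees of freedom. The SE is the absolute fold change on the log2 scale divided by the square root of F. Tests are two-sided. The functions were tested on simulated data. TMM rescaling moved the median of all genes by -0.14 (VM) to 0.17 (FB_stipe) in log2(TPM + 1), and all 13 members kept their place under it. No libraries of a group agreed within sampling noise (chi-square per degree of freedom 42.9 to 339).

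The members and all choices of tests were made with earlier results of these data known. Named genes are, per comparison, up to 2 called rises and 2 falls without overlap and at least 20 CPM, and the most abundant, widest and nearest to the edge of the rule. Members are otherwise listed once, or named as exceptions after their values were seen. limma-voom (limma 3.58.1) and DESeq2 1.42.0 were alternatives. Columns of other samples numbered 0.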

Additional observations from a re-analysis of the deposited data

How the results depend on the processing

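The number of genes that met the rule was 13, and 38 and 3 with margins of 1.0 and 1.5, 24 with TMM-rescaled TPM (all 13 included), 33 with the authors' deposited log2 RPKM (12 of the 13 included), and 47 without the flowcell of YFB_cap replicates 2 and 3 (10 of the 13 included). The last 2 settings were chosen after seeing the data. Leaving out single libraries gave 3 to 40 genes. Group medians gave 16, of which 7 are among the 13. A minimum level of 4, unique reads and kept single-group peaks gave 13, and a pseudocount of 0.1 gave 15.

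For P2_cap against P2_stipe, where edgeR called 0 members, the replicate block and limma-voom gave 1 each, DESeq2 gave 2, the 6 libraries alone and the fit without the VM-sharing flowcell 3 each, and the fit without FB_cap replicate 2 and FB_lamellae replicate 1, added after seeing the data, 2. Single libraries left out gave 0 to 2. For P1 against VM, 7 calls became 3 with flowcell as a covariate, 3 to 6 without single libraries and 8 with DESeq2. They became 9 without FB_cap replicate 2 and FB_lamellae replicate 1. The fit without the VM-sharing flowcell leaves VM with 1 library, so its count for P1 against VM is not given. For P2_cap against P1, 6 calls became 2 to 4 without single libraries, 8 with the 6 libraries alone and without the VM-sharing flowcell, and 7 without FB_cap replicate 2 and FB_lamellae replicate 1. For FB_lamellae against P2_cap, 1 call became 2 with the replicate block, with limma-voom and with DESeq2, and 1 to 3 without single libraries. P2_stipe against P1 gave 0 throughout. Calls over all tested genes moved as well. For P2_cap against P2_stipe, 1056 became 1014 with the replicate block, 1026 with limma-voom, 1351 with DESeq2 and 1402 with the 6 libraries alone. They became 1355 without the VM-sharing flowcell, 1268 without FB_cap replicate 2 and FB_lamellae replicate 1, and 592 to 1142 without single libraries. For P1 against VM, 2034 became 1167 with flowcell as a covariate, 2297 with DESeq2 and 1496 to 2688 without single libraries. They became 2280 without FB_cap replicate 2 and FB_lamellae replicate 1. For P2_cap against P1, 1905 became 1160 to 1692 without single libraries and 2391 with the 6 libraries alone. For FB_lamellae against P2_cap, 1612 became 1541 with the replicate block, 1476 with limma-voom, 1919 with DESeq2 and 1070 to 1716 without single libraries. The labels do not say whether same-numbered libraries share an origin, and no comparison had all 3 correlations of same-numbered deviations over 0.1 (-0.40 to 0.50 in all), so the numbers were not taken as pairs. With the replicate block P1 against VM gave 6 and P2_cap against P1 gave 5. The values without FB_cap replicate 2 in comparisons with FB_cap were also added after seeing the data. The cause of these changes was not tested.

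None of the followed log2 fold changes of single genes changed its sign in any alternative. Those followed were the calls of the main fit and some uncalled estimates, all at least 1.15 in absolute size. That choice favoured stable signs. Over these values and settings 51 lost the call, 14 gained it and 223 kept their side of the threshold. Among all members signs did change. With flowcell as a covariate, the number of estimates higher in P1 than in VM fell from 11 to 8. The number higher in FB_lamellae than in P2_cap rose from 4 to 7. Each group had 3 libraries, which limits the precision of every value.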
